A study of Mus musculus with 28 samples.

Results

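The 10 genes described here carry fatty acids from circulating lipoproteins into fat cells and activate them there: Lpl, Gpihbp1, Cd36, Fabp4, Slc27a1 and the long-chain acyl-CoA synthetases Acsl1, Acsl3, Acsl4, Acsl5 and Acsl6. They were chosen by name, as a pathway, and were found by Ensembl identifier in every depot table, among 55891 identifiers (29330 in the ieWAT table). Bulk RNA-seq compared Fgf13 knockout with control adipose tissue of mice (13 knockout and 15 control libraries). The epididymal ieWAT set (3 knockout and 3 control libraries) and the subcutaneous isWAT set (2 knockout, 3 control) came from mice with an inducible adipose knockout. The subcutaneous sWAT set (3 knockout, 3 control) and the brown fat set, BAT (2 knockout, 3 control), came from mice with a constitutive one. In these 4 sets all mice, controls (labelled WT) included, had been made obese by a high fat diet given for 20 weeks. For a further epididymal set, eWAT (3 knockout, 3 control), neither the type of knockout nor the diet is stated. The sources used here do not state the promoter that drives the deletion, age or sex. The labels do not tie libraries to animals, so p-values speak of the scatter among the sequenced samples, which may be technical.

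Lipoprotein lipase, encoded by Lpl, frees fatty acids from triglyceride in the capillaries of fat. It is held there by Gpihbp1, a protein that capillary endothelial cells make. Fatty acids enter the fat cell with the help of the membrane protein Cd36 and the transport protein encoded by Slc27a1, are bound in the cytosol by Fabp4, and are joined to coenzyme A by the Acsl enzymes, which commits them to triglyceride synthesis or oxidation. Acsl1 is known as the main synthetase of fat cells.

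Libraries held between 29857189 and 43624353 reads for ieWAT and between 37700750 and 48812592 for isWAT. They were shallower for sWAT (13490948 to 21241811) and BAT (14951333 to 21246286), and the eWAT depth is unknown. As a check of the labels, Fgf13 was lower in every knockout library than in every control library of ieWAT (22.6 to 33.4 CPM in knockout against 39.7 to 51.4 CPM in control, read counts scaled to library depth), isWAT (31.3 and 35.3 CPM in knockout against 53.0 to 69.2 CPM in control), sWAT (43.0 to 84.0 CPM in knockout against 106 to 113 CPM in control) and BAT (0.246 and 1.87 CPM in knockout against 3.01 to 17.6 CPM in control). Fgf13 itself did not pass the test used below in any of these 4 depots (limma adjusted p = 1.00 in ieWAT, 0.179 in isWAT, 0.447 in sWAT and 0.251 in BAT), so a gene that misses the threshold here is not shown to be unchanged. In eWAT it was not lower (17.6 to 27.0 FPKM in the libraries labelled knockout, 12.9 to 27.6 FPKM in control), so each eWAT direction below rests on the labels alone. The 8 brown fat markers summed to 8042 and 10130.3 CPM in knockout and 7738 to 10560.5 CPM in control BAT, and to 44.6 to 127 CPM over the libraries of the 3 white depots in CPM. Skeletal muscle transcripts were high in sWAT knockout libraries 2 and 3 (2097 and 2635 CPM summed over 10 markers, against 20.7 to 35.8 CPM in the other sWAT libraries). In BAT that sum was 0.984 and 5917 CPM in knockout, against 412, 1213 and 9.28 CPM in control libraries.

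Among the 4 synthetases that passed the filter, which leaves out Acsl6, the difference between genotypes was largest for Acsl1 in eWAT and Acsl5 in BAT, so the sequence before their start sites is shown. The RefSeq promoter table (GRCm38.p6) held windows for 7 of the 10 genes. Lpl, Gpihbp1 and Fabp4 were not among them. The 250 bases before each start site are printed on the plus strand, the strand of both genes, with motif matches in capitals (GGGCGG, a GC box, or CCAAT, each on either strand). Acsl1 has a pair of start sites, with the stretches chr8:46470787-46471036 and chr8:46490716-46490965, and the Acsl5 stretch is chr19:55253119-55253368.
Acsl1, upstream start site: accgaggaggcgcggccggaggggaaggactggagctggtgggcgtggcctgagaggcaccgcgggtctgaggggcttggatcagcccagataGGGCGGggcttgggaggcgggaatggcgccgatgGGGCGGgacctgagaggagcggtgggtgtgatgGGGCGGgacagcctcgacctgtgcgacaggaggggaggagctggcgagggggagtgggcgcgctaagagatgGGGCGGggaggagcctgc
Acsl1, downstream start site: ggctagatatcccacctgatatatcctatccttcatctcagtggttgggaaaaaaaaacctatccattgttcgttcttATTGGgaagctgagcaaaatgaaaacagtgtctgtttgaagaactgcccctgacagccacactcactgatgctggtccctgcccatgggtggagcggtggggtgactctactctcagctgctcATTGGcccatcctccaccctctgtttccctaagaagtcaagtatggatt
Acsl5: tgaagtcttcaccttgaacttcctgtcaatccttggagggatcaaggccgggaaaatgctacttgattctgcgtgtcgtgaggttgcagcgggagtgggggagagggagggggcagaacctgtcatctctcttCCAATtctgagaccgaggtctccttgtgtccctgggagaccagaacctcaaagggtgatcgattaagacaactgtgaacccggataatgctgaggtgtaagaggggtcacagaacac
The upstream Acsl1 stretch holds GC boxes 157, 123, 90 and 18 bases before the start site and no CCAAT box. The downstream one holds CCAAT boxes 172 and 49 bases before its start site and no GC box, and Acsl5 holds 1 CCAAT box, 117 bases before. In windows of 300 bases (50 of them after the start site), GGGCGG occurs in 35.66% and CCAAT in 37.41% of all 32851 windows of the table. The nuclear receptor motif AGGTCA (16.26% of windows), its direct repeat with a 1-base spacer, which contains it (0.03957%), and TATAAA (13.62%), searched on both strands, were not in these 3 windows. A match or its absence is a description of letters only.

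The same genes led in every depot. Per length (CPM divided by kilobases of the longest coding transcript in GENCODE M21), Fabp4 was highest in the control libraries of all 4 CPM depots, at 6389 ± 412 CPM per kb in ieWAT, 10115 ± 1136 in isWAT, 13649 ± 992 in sWAT and 7109 ± 641 in BAT (SD, n = 3 each). Lpl was next (762 to 2683 CPM per kb as control means), then Cd36 (738 to 1757) and Acsl1 (461 to 823). The control ranges of these 4 genes did not meet in ieWAT, isWAT or sWAT, while in BAT Lpl (631 to 951) and Cd36 (682 to 839) overlapped. The order of Lpl and Cd36 depends on the length used. Lpl has 4115 bases and Cd36 3399 in the longest coding transcript, but 10478 and 3590 in merged exons. By merged exons Cd36 would stand before Lpl in the control means of all 4 CPM depots. Gpihbp1 (77.6 to 195.3 CPM per kb) and Slc27a1 (36.6 to 154) followed. Their control ranges overlapped in isWAT and sWAT, Slc27a1 lay above Gpihbp1 in ieWAT, and Gpihbp1 lay above Slc27a1 in BAT. Below them came Acsl5 (19.0 to 26.1), and then Acsl3 (3.72 to 4.65) and Acsl4 (2.84 to 6.02), which overlapped in ieWAT, isWAT and BAT. In eWAT, by the deposited FPKM, Cd36 (2814 ± 490) stood before Lpl (2056 ± 198), without overlap of their ranges (SD, n = 3 each), Slc27a1 stood before Gpihbp1, and Acsl4 before Acsl3. These tables were normalised separately, so levels are set side by side only as a description. Acsl6 was at the floor: 0 to 15 reads in a BAT library, at most 11 in sWAT and 6 in isWAT, and at most 109 in ieWAT, where control library 3 alone held 3.29 CPM. In ieWAT it was lower in knockout without overlap (0.134 to 0.206 CPM in knockout against 0.325 to 3.29 CPM in control), as it was in isWAT (0.106 and 0.120 CPM in knockout against 0.123 to 0.156 CPM in control), at 4 to 6 reads a library there, and it failed the filter in every depot.

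**Figure D1:**
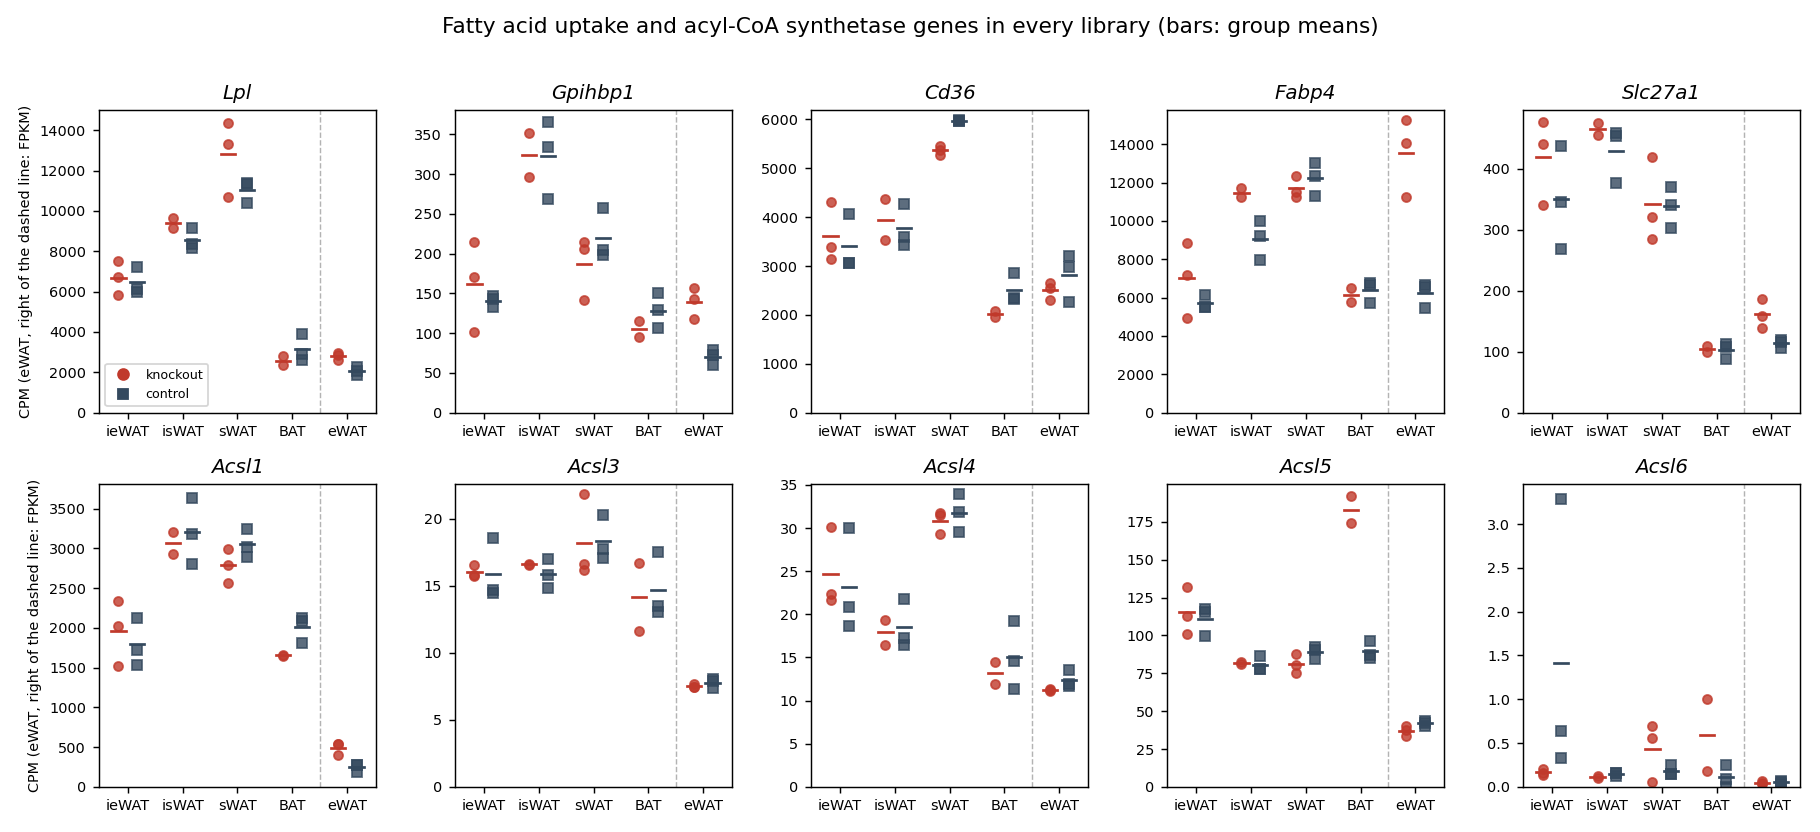
Level of each of the 10 genes in every library, in CPM for ieWAT, isWAT, sWAT and BAT and in FPKM for eWAT (right of the dashed line), with knockout points left of control points and bars at the group means. Acsl5 in BAT (174 and 192 CPM in knockout, 85.3 to 96.5 CPM in control) and Fabp4, Gpihbp1 and Acsl1 in eWAT stand apart by genotype label.

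Of the 9 genes that passed the filter in each depot (Acsl6 did not), 4 rose in the eWAT libraries labelled knockout and none changed past the threshold in ieWAT, isWAT, sWAT or BAT. The test was limma with Benjamini-Hochberg adjustment over all genes of a depot, at 0.05. Among all genes tested, that rule called 10.2% as higher and 4.7% as lower in eWAT, 0% in ieWAT, 0.00701% in isWAT, 0.0217% in sWAT and 0.00755% in BAT in either direction. At an unadjusted p under 0.05 there were 0 of the 9 in ieWAT (2.62% of all genes tested), 1 in isWAT (Fabp4, beside 13.1%), 0 in sWAT (9.66%), 1 in BAT (Acsl5, beside 19.2%) and 5 in eWAT (33.9%). In ieWAT the genotypes overlapped for all 9 genes, where 3.43% of all genes were higher and 1.68% lower without overlap, 5.11% in all. The rule called 0 of 14749 genes in ieWAT, where 386 had an unadjusted p under 0.05, edgeR called 0 and DESeq2 32. The median log2 change of the 9 was 0.45 in eWAT, where that of all genes tested was -0.02. It was 0.10 in ieWAT (all genes 0.02), 0.06 in isWAT (-0.03), -0.06 in sWAT (-0.05) and -0.15 in BAT (-0.18). In BAT that shift of all genes moves with the scaling and is 0.00 with TMM factors. For Cd36, Fabp4, Acsl1, Acsl3, Acsl4 and Acsl5 the BAT change is therefore also given with TMM. Log2 changes of other genes in BAT are on the deposited scale only.

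**Figure D2:**
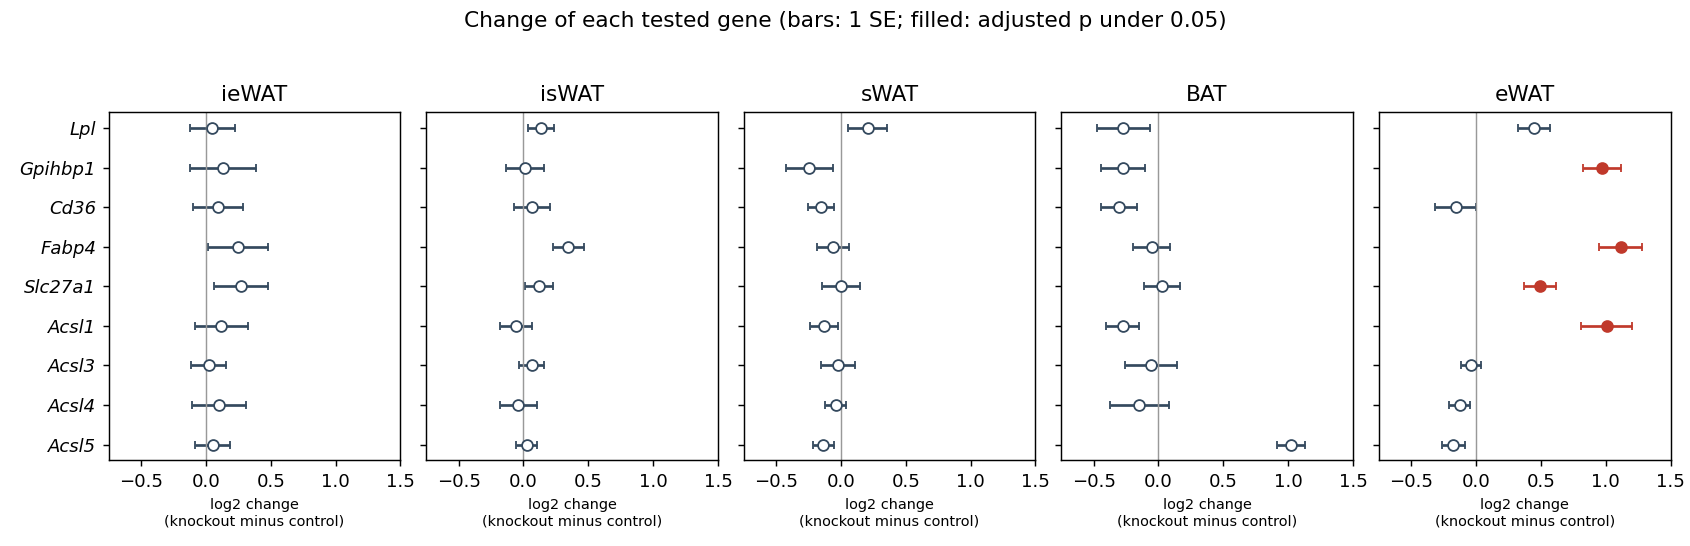
Change of log2(value + 1), knockout minus control, for the 9 genes tested in each depot, with bars of 1 standard error and filled points where the limma adjusted p was under 0.05. Filled points occur in eWAT for Gpihbp1, Fabp4, Slc27a1 and Acsl1, and Acsl5 in BAT (1.02, SE 0.11) is the one open point near 1.

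Of the lipolysis pair, Gpihbp1 rose in eWAT and Lpl did not pass. Gpihbp1 had 118, 142 and 156 FPKM in the libraries labelled knockout, against 79.2, 72.4 and 59.3 FPKM in control. The groups did not overlap, and the lowest labelled knockout library was above the highest control. Gpihbp1 rose by 0.97 on the log2 scale (SE 0.15, limma adjusted p = 0.0133). Lpl had 2866, 2589 and 2949.6 FPKM in libraries labelled knockout and 1849.6, 2245 and 2072 FPKM in control libraries. Its groups also did not overlap, but its log2 change of 0.45 (SE 0.12) missed the threshold (limma adjusted p = 0.0541) and passed it with TMM factors (adjusted p = 0.0419), upper-quartile scaling (0.0385) and plain eBayes (0.0408). In isWAT, Lpl had 9669 and 9176 CPM in knockout against 8385, 8181 and 9156 CPM in control libraries. The lower knockout library lay just above the highest control, and the change of 0.14 (SE 0.10) did not pass (limma adjusted p = 0.569).

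In the other depots both genes overlapped between genotypes. Lpl ran from 5825 to 7513 CPM in knockout and 5992 to 7221 CPM in control ieWAT, 10697.5 to 14388 CPM in knockout and 10374 to 11392 CPM in control sWAT, and 2339 to 2798 CPM in knockout and 2598 to 3912 CPM in control BAT. The highest Lpl of all CPM libraries was in sWAT knockout library 3 (14388 CPM), one of those with muscle transcripts. Knockout library 2, the other one, had the lowest Lpl of the sWAT knockout libraries (10697.5 CPM). Knockout library 1, with 22.2 CPM of muscle markers, had 13345 CPM of Lpl. Muscle too makes Lpl, and its part in these levels was not tested. Gpihbp1 ran from 100.8 to 214 CPM in knockout and 132 to 147 CPM in control ieWAT, so that the knockout libraries bracketed the controls. It ran from 297 to 351 CPM in knockout and 268 to 365 CPM in control isWAT, 142 to 215 CPM in knockout and 199 to 257 CPM in control sWAT, and 95.6 to 115 CPM in knockout and 106 to 149.99 CPM in control BAT.

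Because Gpihbp1 is an endothelial gene and the tissue is a mix of cells, it was also set against 10 endothelial markers (log2 Gpihbp1 minus the markers' mean log2). In eWAT this difference averaged 1.78 ± 0.22 in libraries labelled knockout and 1.52 ± 0.08 in control (SD, n = 3 each), and the ranges overlapped (exact two-sided permutation p = 0.2, 0.75 adjusted over 5 depots). Against Pecam1, Cdh5 and Kdr alone the eWAT difference was 0.28 (exact permutation p = 0.1, the smallest possible). In eWAT 8 of the 10 endothelial markers rose, and their sum was 449 to 588 FPKM in libraries labelled knockout against 244 to 314 FPKM in control. In the CPM depots the knockout minus control value was 0.05 in ieWAT, 0.19 in isWAT, 0.03 in sWAT and 0.02 in BAT, all with overlap and exact permutation p from 0.3 to 0.9. The smallest p these group sizes allow is 0.1. In bulk tissue, fewer cells of a type and less RNA per cell cannot be told apart.

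Cd36, the membrane receptor, did not pass in any depot. In sWAT it had 5263, 5463 and 5384 CPM in knockout against 5963, 5993 and 5958 CPM in control libraries. The controls lay close together and the knockout libraries all lay lower, with a change of -0.15 (SE 0.10, limma adjusted p = 0.626), -0.11 with TMM and -0.18 without knockout libraries 2 and 3, which leaves 1 knockout library, assumed to vary like the controls. Genes lower without overlap made up 12.3% of those tested in sWAT, and Cd36 was 1 of 9 here. None of the 9 was higher without overlap there, beside 3.8% of all genes. Sums of endothelial markers (1360.1 to 1753 CPM in knockout against 1816 to 1871 CPM in control) and of lipid-associated macrophage markers (359.7 to 960.1 CPM in knockout against 1097 to 1263 CPM in control) were also lower without overlap in sWAT, and their part was not tested. In BAT it had 1949 and 2089 CPM in knockout against 2317, 2353 and 2851 CPM in control libraries. These groups did not overlap either, as for 38.1% of genes tested (lower), and the change of -0.31 (SE 0.14, limma adjusted p = 0.280) was -0.10 with TMM. In eWAT Cd36 had 2310.1, 2652 and 2541 FPKM in the libraries labelled knockout and 2264, 2974 and 3205 FPKM in control. It overlapped there (log2 change -0.16, SE 0.16), while Fabp4 and Acsl1 rose in the same libraries.

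Fabp4, the cytosolic binding protein of fat cells, rose in eWAT. It had 11248, 14044 and 15274 FPKM in libraries labelled knockout, against 6527, 6641 and 5471 FPKM in control. Every labelled knockout library was above every control, and the ratio of the means was 2.18 (log2 change 1.12, SE 0.16, limma adjusted p = 0.0128). In isWAT Fabp4 had 11707 and 11253 CPM in knockout against 7977, 9996 and 9217 CPM in control libraries. The groups did not overlap, but the change of 0.35 (SE 0.12) missed the threshold with limma (adjusted p = 0.333) and edgeR (0.344). It passed with DESeq2 (adjusted p = 0.0363), which called 273 of 14258 genes in isWAT, where limma called 1. Lpl and Fabp4 were the 2 of 9 higher without overlap in isWAT, where 12.2% of genes tested were. In isWAT the endothelial marker sum was lower without overlap (2595 and 2500.3 CPM in knockout against 2630.2 to 3029.7 CPM in control), and that of lipid-associated macrophages higher (1116 and 1123 CPM in knockout against 612 to 1046 CPM in control). Their part in the isWAT values was not tested. In ieWAT (4931 to 8868 CPM in knockout against 5494 to 6151 CPM in control), sWAT (11251.5 to 12329 CPM in knockout against 11284 to 13047 CPM in control) and BAT (5779 to 6480.4 CPM in knockout against 5710.2 to 6760.4 CPM in control), knockout overlapped control. In BAT its change was -0.05 on the deposited scale and 0.15 with TMM, so no direction is given.

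Slc27a1, a transport protein with acyl-CoA synthetase activity, also rose in eWAT. It had 159, 139 and 187 FPKM in the libraries labelled knockout and 106, 119.7 and 115 FPKM in control. All 3 labelled knockout libraries exceeded all controls (log2 change 0.49, SE 0.13, limma adjusted p = 0.0458). That call was lost with plain eBayes (adjusted p = 0.0516), with no filter (0.110), in the TPM table, and without any single library other than labelled knockout library 2 (0.0900 to 0.140). It held under 5 of 13 alternatives of the FPKM table. Slc27a1 overlapped between genotypes in ieWAT (341 to 477 CPM in knockout against 269 to 438 CPM in control), isWAT (455 and 475 CPM in knockout against 377 to 458 CPM in control), sWAT (285 to 419.8 CPM in knockout against 303 to 371 CPM in control) and BAT (99.0 and 109 CPM in knockout against 87.9 to 112 CPM in control).

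Among the synthetases, Acsl1 rose in eWAT, and Acsl3, Acsl4 and Acsl5 did not pass. Acsl1 (chromosome 8, 46471037 to 46536051 on GRCm38) had 395, 545 and 535 FPKM in libraries labelled knockout, against 276, 272 and 188 FPKM in control. The lowest labelled knockout library stood above the highest control, the means differed by a ratio of 2.00, and the log2 change was 1.01 (SE 0.20, limma adjusted p = 0.0231). Acsl5 had 40.3, 33.5 and 37.7 FPKM in libraries labelled knockout and 42.4, 40.2 and 43.3 FPKM in control. The highest labelled knockout library lay just above the lowest control (log2 change -0.17, SE 0.09, limma adjusted p = 0.217). Acsl4, which prefers arachidonate, had 11.1, 11.3 and 11.3 FPKM in libraries labelled knockout against 11.9, 13.5 and 11.6 FPKM in control. It was lower without overlap, as for 19.6% of genes tested, and its change of -0.13 did not pass (limma adjusted p = 0.312). Acsl3, an isoform of lipid droplets, overlapped (7.45 to 7.70 FPKM in labelled knockout against 7.35 to 8.05 FPKM in control). In eWAT 5 of the 9 genes were higher without overlap (Lpl, Gpihbp1, Fabp4, Slc27a1, Acsl1), beside 21.6% of all genes tested. With Acsl4, 6 of 9 did not overlap in either direction, beside 41.2% of all genes.

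The eWAT calls went with a shift of cell type markers. All 8 adipocyte markers rose (summed level 6255 to 7044 FPKM in libraries labelled knockout, 2002 to 3053 FPKM in control), with a median log2 change of 1.31. Of 10 macrophage markers, 6 fell and none rose (4943 to 5770.1 FPKM in labelled knockout against 7966 to 11496 FPKM in control summed), and of 8 markers of lipid-associated macrophages 1 fell, Cd9 (3054 to 5170.0 FPKM in labelled knockout against 5619.6 to 12609.6 FPKM in control summed). None of these markers was at 0 in any eWAT library. Relative to the mean log2 of the adipocyte markers, a measure added after the data were seen, Lpl was lower in the libraries labelled knockout by a log2 difference of -0.95, Cd36 by -1.56, Slc27a1 by -0.91 and Acsl1 by -0.39, all without overlap. Fabp4 differed by -0.28, with overlap. The marker mean itself was higher by 1.40 in the libraries labelled knockout, beside a median change of -0.02 over all genes tested. A gene without change would therefore also be lower by this measure, and its values over all genes were not computed. By the same measure Cd36 (-0.27) and Acsl1 (-0.25) were lower in knockout sWAT, and Fabp4 (0.29) was higher in knockout isWAT, without overlap. The other values of these genes in the CPM depots overlapped. These 5 genes are themselves made by fat cells, and what part cell mix has in their values was not tested.

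**Figure D3:**
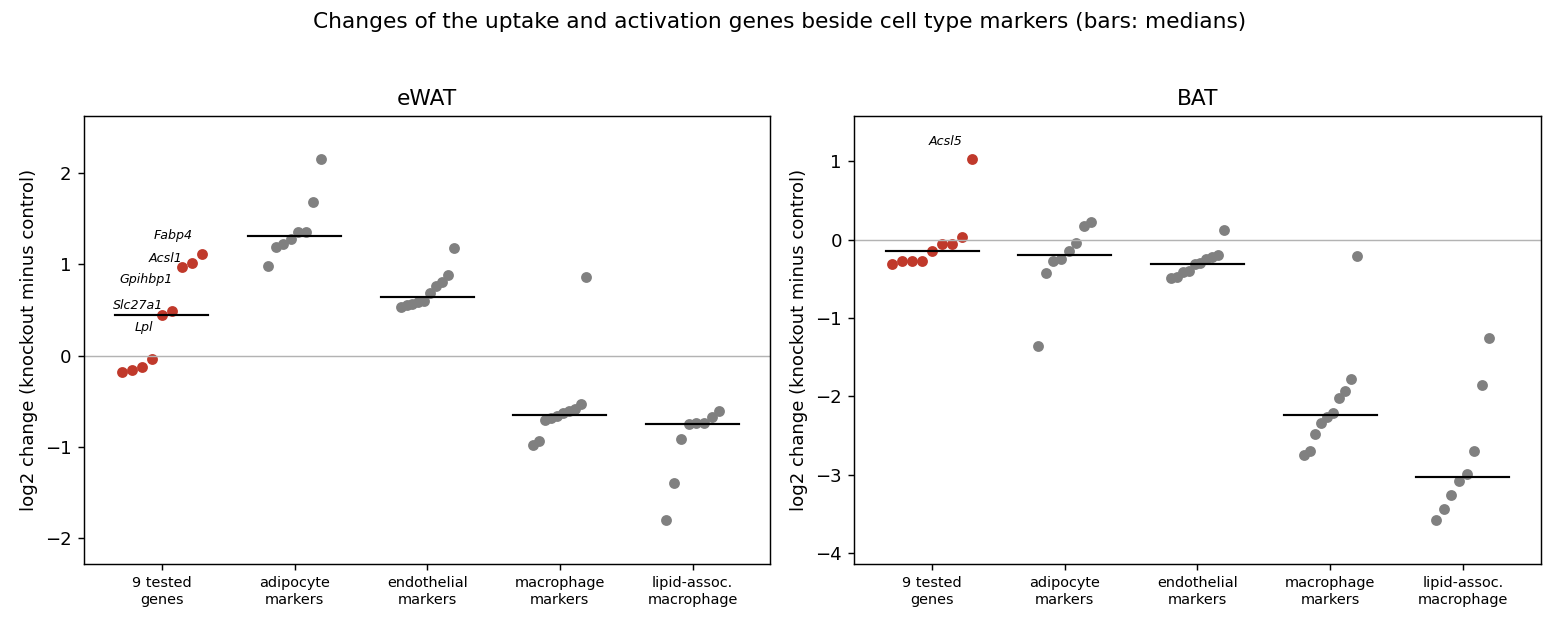
Log2 change, knockout minus control, of the 9 tested genes (red, named where the change exceeds 0.4) and of cell type markers (grey) in eWAT and BAT, with bars at the medians. In eWAT the median of the adipocyte markers (1.31) lies above the change of each of the 9 genes (Fabp4, the highest, at 1.12), and in BAT the macrophage markers (median -2.24) lie far below Acsl5 at 1.02.

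The eWAT calls depended on single libraries. Without labelled knockout library 3, 0 of the 9 genes passed, although Fabp4 (1.02), Gpihbp1 (0.88) and Acsl1 (0.94) kept their size and direction. Without control library 2, Fabp4 and Gpihbp1 passed and Acsl1 and Slc27a1 did not. Acsl1 was also lost without labelled knockout library 2 (adjusted p = 0.0700), and Slc27a1 without control library 1, control library 3 or labelled knockout library 1. A second deposited table of the same 6 libraries, in TPM, called 0 of the 9. Its columns correlated with each other at 0.69 to 0.96, against at least 0.98 in the FPKM table.

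Acsl5 in BAT gave the largest difference of any of the 9 genes in the 4 CPM depots. Acsl5 (chromosome 19, 55251938 to 55297720 on GRCm38), an isoform of mitochondria and endoplasmic reticulum, had 174 and 192 CPM in knockout libraries, against 96.5, 85.3 and 86.8 CPM in control libraries. Both knockout libraries were far above all controls, with a ratio of means of 2.04. The log2 change was 1.02 (SE 0.11, unadjusted p = 5.79e-05), and the limma adjusted p of 0.136 missed the threshold. With TMM the change was 1.23 (adjusted p = 0.0747), edgeR on the recovered reads gave an adjusted p of 0.107, and DESeq2 gave 8.71e-16. DESeq2 called 791 of 13253 genes in BAT, where limma called 1. Without control library 2 the change was 0.99 (limma adjusted p = 0.00187), and 2201 genes in all were called then. Genes higher without overlap were 6.37% of those tested in BAT, and Acsl5 was the 1 such gene of the 9.

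The 2 BAT knockout libraries, close in Acsl5, stood at 0.984 and 5917 CPM of muscle markers, of which 6 were at 0 in some library. Brown fat and adipocyte marker sums overlapped between genotypes (for adipocytes 6247 and 6309 CPM in knockout against 5825 to 7645 CPM in control). Macrophage markers were lower in knockout. Their sum was 159 and 156 CPM in knockout against 1051, 358 and 1474 CPM in control libraries. All 10 were lower without overlap, beside 38.1% of all genes tested, and none passed the test. Markers of lipid-associated macrophages (26.8 and 28.1 CPM in knockout against 91.4 to 611 CPM in control), of progenitors and fibroblasts (329 and 481 CPM in knockout against 572 to 1926 CPM in control), of endothelium (913 and 903 CPM in knockout against 1013 to 1249.7 CPM in control), of nerve and Schwann cells (282 and 282 CPM in knockout against 284 to 355 CPM in control) and of B and T cells (2.89 and 4.15 CPM in knockout against 6.46 to 15.0 CPM in control) were also lower without overlap. Median log2 changes were -2.24 for macrophage, -3.04 for lipid-associated macrophage, -1.06 for progenitor and fibroblast and -0.75 for B and T cell markers. They were -0.31 for endothelial and -0.19 for nerve and Schwann cell markers, beside -0.18 over all genes tested. The part of these cell types in the BAT Acsl5 value was not tested. Exons of Acsl5 share 404 bases with Zdhhc6 on the opposite strand, and whether strand was used in counting is not given. Zdhhc6 had 22.5 to 24.4 CPM in knockout and 26.1 to 28.7 CPM in control BAT. It was lower without overlap, as were 38.1% of genes tested. The part of reads from the shared bases in the Acsl5 value was not tested.

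The other synthetases in BAT did not share that change. Acsl1 had 1651 and 1655 CPM in knockout against 1805, 2129 and 2084 CPM in control libraries. It was lower without overlap, with a change of -0.28 (SE 0.13, limma adjusted p = 0.280) that was -0.07 with TMM, and with Cd36 it made 2 of 9 genes lower without overlap, against 38.1% of all genes. Acsl3 (11.6 and 16.7 CPM in knockout against 13.1 to 17.5 CPM in control) and Acsl4 (11.9 and 14.5 CPM in knockout against 11.3 to 19.2 CPM in control) overlapped, and both changed sign with TMM (Acsl3 -0.06 as deposited and 0.13 with TMM, Acsl4 -0.15 as deposited and 0.05 with TMM). In ieWAT, isWAT and sWAT all tested isoforms overlapped between genotypes. Acsl5 there ran from 100.9 to 132 CPM in knockout and 99.4 to 117 CPM in control ieWAT, 81.2 and 82.6 CPM in knockout against 77.5 to 86.3 CPM in control isWAT, and 74.9997 to 87.6 CPM in knockout against 84.3 to 92.4 CPM in control sWAT. Acsl1 ran from 1522 to 2340 CPM in knockout against 1534 to 2125 CPM in control ieWAT, 2925 and 3206 CPM in knockout against 2803 to 3635 CPM in control isWAT, and 2566 to 2995 CPM in knockout against 2893 to 3245 CPM in control sWAT.

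Acsl1 was the dominant isoform in all 28 libraries, and Acsl5 was second by its mean in each depot. For eWAT this rests on the FPKM values. The TPM values gave an Acsl1 share difference of 31.4 points there, and the order of isoforms in them is not given. Per length, Acsl1 made up 90.5 to 94.96% of the summed level of the 5 isoforms in ieWAT, 96.4 to 97.2% in isWAT and 95.5 to 96.5% in sWAT, with overlap of genotypes. In BAT it was 90.2 and 89.0% in knockout against 94.2, 95.2 and 95.1% in control libraries. The BAT difference was -5.28 percentage points, and Acsl5 held 8.73 and 9.48% in knockout against 4.63, 3.51 and 3.64% in control libraries. In eWAT, Acsl1 held 87.0, 91.2 and 90.4% of the summed FPKM in libraries labelled knockout against 81.6, 81.5 and 75.05% in control, a difference of 10.2 points. Neither depot's groups overlapped, and in both the exact two-sided permutation p was 0.1, the smallest possible, and 0.25 adjusted over the 5 depots. The lengths behind the FPKM are not given, so eWAT shares are not set beside those of the other depots. Acsl3, Acsl4 and Acsl6 together did not reach the level of Acsl5 in any depot's means.

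**Figure D4:**
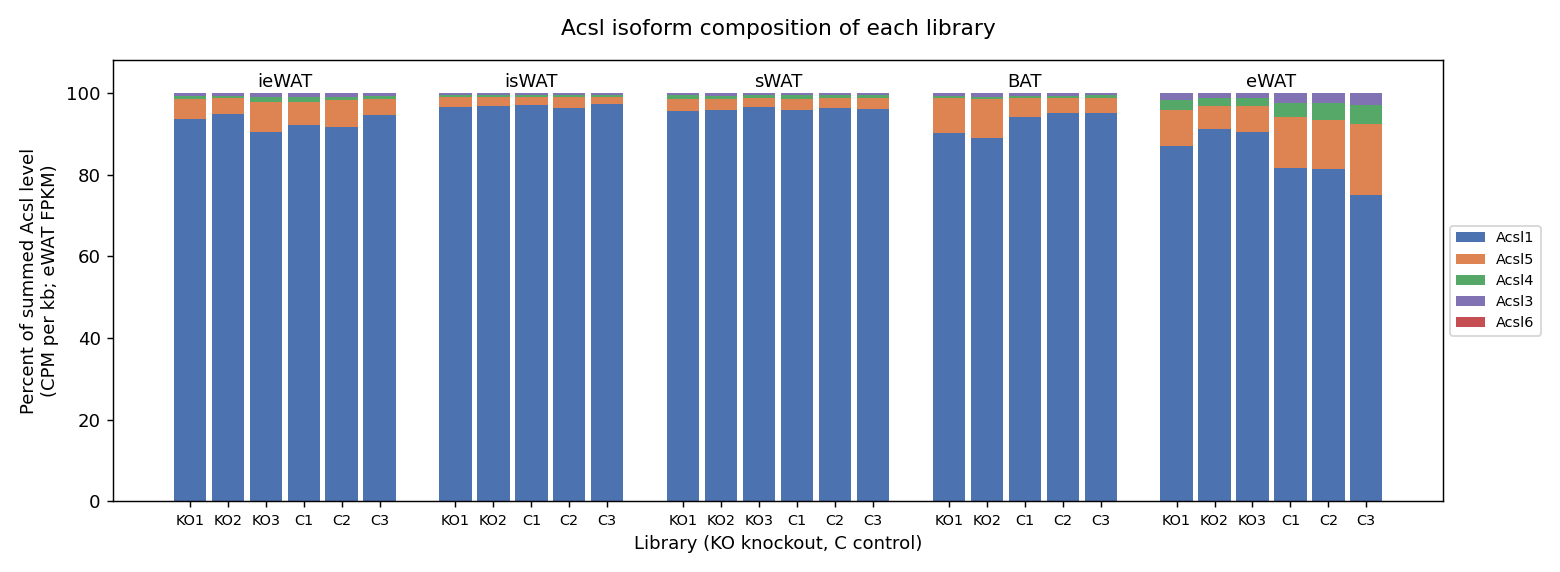
Percent of the summed Acsl level (CPM per kilobase of the longest coding transcript, or FPKM in eWAT) held by each isoform in each library, knockout libraries (KO) left of control libraries (C) in each depot. Acsl1 fills at least 75.05% of every bar, and the Acsl5 segment is taller in BAT knockout libraries (8.73 and 9.48%) than in BAT control libraries (3.51 to 4.63%).

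The choice of length moved these shares but not the order. With merged exons, Acsl1 held 78.4% in knockout and 88.6% in control BAT as means, and it stayed first in all 22 CPM libraries. The ratio of Acsl1 to Acsl5 per length was 10.3 and 9.39 in knockout against 20.4, 27.2 and 26.1 in control BAT. It was 9.81, 16.3 and 14.2 in eWAT libraries labelled knockout against 6.51, 6.77 and 4.33 in control, so that the ratio was lower in knockout BAT and higher in eWAT libraries labelled knockout. Exons of Acsl1 share 1039 bases with Gm45244 on the opposite strand, which was at 0 in every BAT and eWAT library. Acsl3 shares 244 bases with Utp14b on its own strand (2.46 to 6.43 CPM over all CPM libraries).

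Acsl1 and Acsl5 ran opposite to each other within most groups, but not in the isWAT and BAT knockout groups. There the library with more Acsl1 also had more Acsl5. On the log2 scale its Acsl1 lay 0.066 above the group mean in isWAT and 0.0020 in BAT. Its Acsl5 lay 0.012 and 0.070 above. Over the 22 CPM libraries, as deviations of log2(CPM + 1) from the mean of their own depot and genotype, Pearson's r was -0.91 and Spearman's rho -0.88, and r was -0.86 without the 2 libraries farthest from the median of Acsl1. Without ieWAT, whose libraries spread most, r was -0.80 over 16 libraries. The pair was picked after all pairs had been seen, the libraries of a depot share their scaling, and the deviations of a group sum to 0, so this is a description. Cd36 and Acsl4 ran together (r 0.89, rho 0.85, 0.84 without the 2 farthest), while r for Gpihbp1 and Fabp4 was 0.65 over 22 libraries and 0.18 without the 2 farthest.

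**Figure D5:**
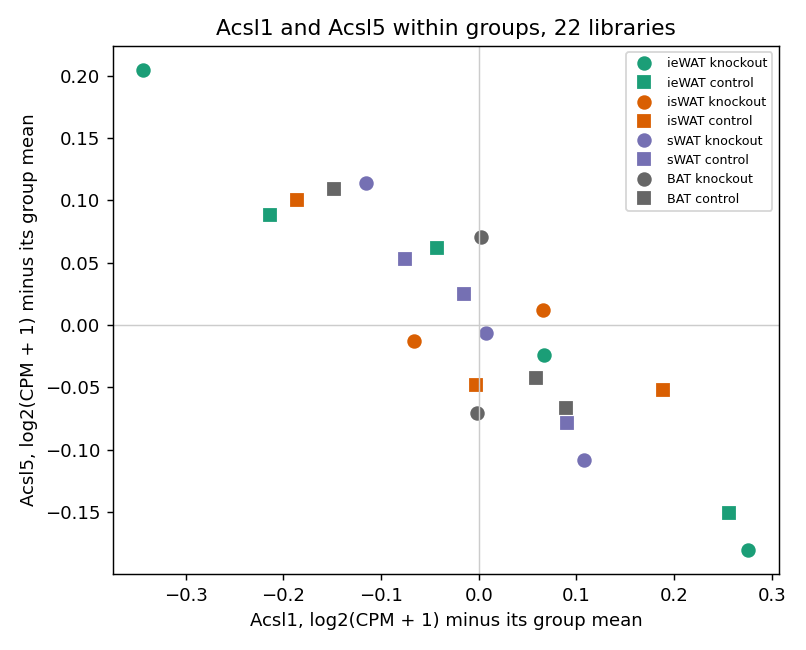
Deviation of Acsl5 against deviation of Acsl1 from the mean of the same depot and genotype, on the log2(CPM + 1) scale, for 22 libraries (circles knockout, squares control, colour by depot). Most libraries with more Acsl1 than their group had less Acsl5 (Pearson's r -0.91), but in the isWAT and BAT knockout groups the libraries deviated the same way for both genes.

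By the same deviations, the genes most like each member over the 22 libraries were named, at most 3 for each, out of 12461 genes. Gpihbp1 was most like Esam (r 0.93), Rasip1 and Ccm2l, and Esam is one of the endothelial markers. Genes most like Acsl1 included Bcl2l13 (0.89) and Cluh (0.87). Acsl5 was most like Stx3 (0.83), P3h4 and Loxl3, and Cd36 most like Atp7a (0.95), a copper transporter, Tmem168 and Serinc1. Lpl was most like Ywhab (0.90), Setd7 and Elp3, and Fabp4 most like Art3 (0.92), Serhl and Mgst2. Slc27a1 was most like Ccdc114 (0.91), 2010003K11Rik and Atg2a, Acsl3 most like Fut4 (0.81), Rcan2 and Prkaa2, and Acsl4 most like Tsn (0.93), Nin and Agps. These are correlations over libraries that share depots, given without a test.

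Of 76 other genes of the pathway in 8 lists, 53 were tested in eWAT, where 13 rose and 4 fell (beside 10.2% and 4.7% of all genes), and none of 65, 59, 54 and 56 tested passed in ieWAT, isWAT, sWAT and BAT. Their median log2 change was 0.11 in eWAT and -0.15 in BAT, beside -0.02 and -0.18 over all genes. Among the genes of Lpl maturation, cofactors and inhibitors, those that rose in eWAT included Angptl4, Angptl8 and Apoc1. Angptl8, an inhibitor of the lipase, averaged 35.7 ± 9.38 FPKM in libraries labelled knockout and 13.04 ± 1.25 FPKM in control (log2 change 1.36), and Apoc1, an apolipoprotein that inhibits the lipase, 202 ± 62.1 FPKM in labelled knockout and 70.95 ± 5.19 FPKM in control (1.46). Both had a limma adjusted p of 0.0122 (SD, n = 3 each). These are the libraries in which all adipocyte markers rose and macrophage markers fell, and the part of that shift in the list genes was not tested.

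Among lipoprotein receptors and lipases in eWAT, the receptor Vldlr rose (38.5 ± 5.91 FPKM in libraries labelled knockout, 20.6 ± 5.57 FPKM in control) and the lysosomal lipase Lipa fell (291 ± 39.5 FPKM in labelled knockout and 519 ± 124 FPKM in control). Of other transport proteins, Ffar4, a receptor for long-chain fatty acids, rose (8.03 ± 0.671 FPKM in labelled knockout and 5.19 ± 1.09 FPKM in control) and Got2 fell (26.5 ± 2.08 FPKM in labelled knockout and 35.4 ± 3.87 FPKM in control). Cav1, the caveolar protein, rose by 1.18 on the log2 scale (1041 ± 82.3 FPKM in labelled knockout and 466 ± 109 FPKM in control) and the kinases Fyn (22.6 ± 1.33 FPKM in labelled knockout and 31.1 ± 0.571 FPKM in control) and Lyn fell. Of other acyl-CoA synthetases Acsf3, Acss2, which activates acetate, and Acss3 rose. Acsf3 averaged 11.7 ± 0.551 FPKM in labelled knockout and 8.04 ± 0.506 FPKM in control, and Acss2 50.3 ± 14.3 FPKM in labelled knockout and 23.8 ± 1.76 FPKM in control. Dbi, which binds acyl-CoA in the cytosol, rose by 1.17 (2710.1 ± 228 FPKM in libraries labelled knockout, 1202 ± 81.1 FPKM in control), and Acbd4 by 1.29 (203 ± 35.7 FPKM in labelled knockout and 82.3 ± 14.5 FPKM in control). The thioesterase Them4 rose (4.41 ± 0.252 FPKM in labelled knockout and 3.27 ± 0.0375 FPKM in control), and Acot9 did not pass (41.0 ± 3.23 FPKM in labelled knockout and 34.8 ± 1.51 FPKM in control, adjusted p = 0.112). No other fatty acid binding protein passed, and Fabp7 (5.06 ± 2.21 FPKM in labelled knockout and 10.4 ± 6.36 FPKM in control) and Fabp3 (2.04 ± 0.527 FPKM in labelled knockout and 2.59 ± 0.403 FPKM in control) had the smallest p there. Several calls lay close to the threshold (limma adjusted p = 0.0405 for Vldlr, 0.0407 for Lipa, 0.0481 for Got2, 0.0488 for Ffar4 and 0.0493 for Them4). The list genes were not followed through the alternatives. Without labelled knockout library 3, calls among all eWAT genes went from 2041 to 12.

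In BAT no gene of these lists passed. Their values are on the deposited scale only, where all genes tested had a median log2 change of -0.18. Of the 56 tested, 10 were higher and 13 lower in knockout without overlap, beside 6.37% and 38.1% of all genes. Acsm3, a medium-chain acyl-CoA synthetase, averaged 82.9 ± 4.63 CPM in knockout (n = 2) and 41.7 ± 11.3 CPM in control libraries (n = 3), with a log2 change of 1.01. Acot11, a thioesterase of brown fat, averaged 508 ± 71.3 CPM in knockout and 247 ± 61.5 CPM in control (1.07), Acss3 62.8 ± 6.41 CPM in knockout and 44.5 ± 4.88 CPM in control (0.49), and Slc27a2, a transport protein, 64.8 ± 8.14 CPM in knockout and 44.3 ± 7.07 CPM in control (0.55). Each was higher in knockout without overlap, and each had a limma adjusted p of 0.237. Of 7 other acyl-CoA synthetases tested in BAT, 4 were higher without overlap, against 6.37% of all genes. Apoc1 (211 ± 28.4 CPM in knockout and 147 ± 26.5 CPM in control) and Dbi (1464.7 ± 99.3 CPM in knockout and 1273 ± 109.7 CPM in control) were also higher without overlap, with adjusted p = 0.238 and 0.382. Lower without overlap were Pcsk6, a convertase (54.8 ± 1.14 CPM in knockout and 81.1 ± 1.36 CPM in control), Lrp1, the remnant receptor (158 ± 10.6 CPM in knockout and 283 ± 47.4 CPM in control), Lipa (129 ± 1.70 CPM in knockout and 169 ± 32.9 CPM in control), Fabp5 (64.5 ± 5.67 CPM in knockout and 107 ± 32.7 CPM in control), Cav1 (767 ± 26.0 CPM in knockout and 1054 ± 189 CPM in control), Fyn (10.1 ± 1.31 CPM in knockout and 16.8 ± 4.90 CPM in control) and Acot2 (44.5 ± 4.49 CPM in knockout and 56.1 ± 8.71 CPM in control). Slc27a4, Fabp3 and Acbd3 overlapped. Macrophage, fibroblast and endothelial markers were lower in these same knockout libraries, and their part in the list genes was not tested.

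In the remaining depots the lists held no call. In isWAT the smallest p values were those of Fyn (37.8 ± 4.70 CPM in knockout, n = 2, and 48.2 ± 2.68 CPM in control, n = 3, log2 change -0.35), Lypla1, Acot13, Acsm3 and Acss1, all with a limma adjusted p of at least 0.314. In sWAT they were those of Furin, a protease that cleaves Lpl (95.9 ± 6.03 CPM in knockout and 118 ± 3.85 CPM in control, -0.30), and Scarb1, a lipoprotein receptor (168 ± 2.08 CPM in knockout and 198 ± 3.86 CPM in control, -0.23), both at an adjusted p of 0.447. In ieWAT no list gene had an unadjusted p under 0.05. Acss2, with the smallest, averaged 93.9 ± 19.6 CPM in knockout and 119 ± 21.5 CPM in control libraries.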

How the data were processed

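RNA-seq of adipose tissue was analysed in 28 libraries, grouped by the genotype in their labels. Per the labels, each depot has its own table, and 7 tables were deposited. The values of ieWAT, isWAT, sWAT and BAT are CPM as deposited, although they are named FPKM: all columns share 1 sum, and 100% of values are whole multiples of 1 read within 0.01 reads, so whole reads were recovered. The eWAT values are FPKM as deposited by the authors. A second eWAT table, whose deposited values are TPM, served only as an alternative, and the last table was not used. Salmon, FastQC, MultiQC and DESeq2 1.38.3 are named, per the submitters' processing notes, with no role given. The aligner, genome build and annotation behind the tables, and the use of strand, are not stated in these sources.

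The members and gene lists were chosen with earlier results of these data known. Each depot was fitted alone with limma 3.58.1 (R 4.3.3, eBayes with trend and robust options) on log2(value + 1), after dropping genes that reached 1 in fewer libraries than the smaller group holds. P-values were adjusted by Benjamini-Hochberg over all genes tested, at 0.05. A count model had been planned for counts, and limma was used because the values are CPM and FPKM. Fold changes on this scale understate those of low genes. edgeR 4.0.16 and DESeq2 1.42.0 on the recovered reads, other scalings, filters, pseudocounts and each library left out were alternatives. The fit was tested on simulated data. Acsl shares and Gpihbp1 relative to endothelial markers were compared by exact two-sided permutation tests.

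Symbols and lengths are from GENCODE M21 (GRCm38), which matched 92.01% of identifiers (96.04% in ieWAT). Lengths are those of the longest protein-coding transcript. All 10 members are named, with the 2 genes of smallest p in each pathway list and depot and the 3 genes most correlated with each member. A few items that this rule names are not reported here. Chosen after seeing the data were the fit without sWAT knockout libraries 2 and 3, the values relative to adipocyte markers and the pairs of members described. Same-numbered knockout and control libraries were checked for pairing and mostly did not deviate together, which cannot show that they were unpaired. The fit reported has no block, as planned. Depth allows 1 read to be worth 0.0205 to 0.0741 CPM.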

Additional observations from a re-analysis of the deposited data

Results flagged for a closer look

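Acsl1 differed in opposite directions by label in 2 depots, without overlap in either, and passed the test only in eWAT. Its log2 change, knockout minus control, was -0.28 in BAT, where both knockout libraries lay below all 3 control libraries, and 1.01 in eWAT, where all 3 libraries labelled knockout lay above all 3 controls. The share of Acsl1 in the summed Acsl level differed by -5.28 percentage points in BAT and 10.2 percentage points in eWAT. That of Acsl5 differed by 5.18 points in BAT and -7.02 points in eWAT, and shares depend on each other. Relative to adipocyte markers, Acsl1 differed by -0.39 in eWAT, without overlap, and by -0.01 in BAT, with overlap. The difference between the depots was not tested, since the BAT table is in CPM and the eWAT table in FPKM, normalised separately. In BAT the limma adjusted p was 0.280, the log2 change was -0.07 with TMM factors, all genes had a median of -0.18, and 38.1% of genes tested were lower without overlap.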

How the results depend on the processing

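The number of the 9 tested genes called stayed at 0 in ieWAT and sWAT under every alternative run. DESeq2 called 1 in isWAT (Fabp4), beside 273 of all 14258 genes tested, and 1 in BAT (Acsl5), beside 791 of 13253. In eWAT the count was 2 with no filter on low values and 0 in the TPM table. Leaving out each library in turn gave 0 to 1 in BAT (1 without control library 2) and 0 to 3 in eWAT (0 without labelled knockout library 3). All genes called in eWAT numbered 2041, 12 without labelled knockout library 3, 561 without control library 2 and 1 in the TPM table. The Acsl1 share difference in BAT was -10.1 points with merged exons and -7.40 with the median transcript length, and in eWAT 31.4 points by TPM. Gpihbp1 relative to Pecam1, Cdh5 and Kdr alone was -0.077 in BAT and 0.28 in eWAT (exact permutation p = 0.1).

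Same-numbered libraries mostly did not deviate together: correlations of their deviations ran from -0.56 to 0.39, and the same number matched best for 2 of 13. With 2 or 3 libraries a group, this check cannot show that they were unpaired. With the replicate block 0 of the 9 genes, and 0 of all genes, were called in eWAT, and in isWAT the Acsl1 share difference was 0.033 points and the log2 changes of Acsl1, Gpihbp1, Acsl5 and Acsl4 were 0.036, -0.11, -0.00082 and 0.079. The BAT Acsl4 change was 0.035 with that block. In isWAT and BAT, control library 3 has no same-numbered knockout library. The isWAT and BAT values with the block are therefore those of the fit without control library 3, and are no separate evidence.

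Changes near 0 turned sign with scaling or tool. With upper-quartile scaling they were 0.0085 for Acsl4 in isWAT, 0.017 for Acsl4 and 0.036 for Acsl3 in sWAT, and 0.036 for Acsl4, 0.12 for Acsl3 and 0.14 for Fabp4 in BAT. With TMM they were 0.0054 and 0.025 in sWAT for Acsl4 and Acsl3, and 0.047, 0.13 and 0.15 in BAT for Acsl4, Acsl3 and Fabp4. With edgeR they were -0.0057 for Acsl3 in ieWAT, 0.0022 and 0.036 in sWAT for Acsl4 and Acsl3, and 0.033, 0.14 and 0.15 in BAT for Acsl4, Acsl3 and Fabp4. With DESeq2 the same 6 were -0.0100, 0.0027, 0.038, 0.032, 0.14 and 0.15. In the TPM table the log2 changes of Cd36 (0.90) and Acsl4 (0.43) in eWAT were positive, but all genes there had a median of 0.65, so no direction is read from them, and Slc27a1 in sWAT was -0.24 without knockout libraries 2 and 3.

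With each library left out in turn, the Acsl1 share difference ran from -0.73 to 1.505 points in ieWAT, -0.40 to 0.033 in isWAT and -0.37 to 0.13 in sWAT. Gpihbp1 relative to endothelial markers ran from -0.051 to 0.14 in ieWAT, -0.088 to 0.16 in sWAT and -0.094 to 0.14 in BAT. Log2 changes in ieWAT ran from -0.044 to 0.23 for Cd36, -0.039 to 0.14 for Lpl, -0.019 to 0.29 for Acsl1, -0.099 to 0.44 for Gpihbp1, -0.051 to 0.14 for Acsl5, -0.047 to 0.29 for Acsl4 and -0.038 to 0.13 for Acsl3. In isWAT they ran from -0.087 to 0.22 for Cd36, -0.15 to 0.036 for Acsl1, -0.11 to 0.13 for Gpihbp1, -0.00082 to 0.075 for Acsl5 and -0.15 to 0.079 for Acsl4. In sWAT they ran from -0.090 to 0.0068 for Acsl4, -0.16 to 0.12 for Slc27a1 and -0.15 to 0.054 for Acsl3. In BAT they ran from -0.32 to 0.035 for Acsl4, -0.077 to 0.098 for Slc27a1, -0.30 to 0.18 for Acsl3 and -0.14 to 0.029 for Fabp4, and for Fgf13 in eWAT from -0.091 to 0.43. The cause of these changes was not tested. With 2 or 3 libraries a group, permutation p cannot go below 0.1, and the depth behind the eWAT values is unknown.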
